A study of Homo sapiens with 6 samples.

Results

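The long non-coding RNA (lncRNA) genes examined here were the small nucleolar RNA host genes, taken as every gene whose symbol is SNHG followed by a number, together with 10 named lncRNAs: GAS5, ZFAS1, EPB41L4A-AS1, MALAT1, NEAT1, OIP5-AS1, NORAD, MIAT, DANCR and TUG1. By this rule 40 genes were found among the 58051 genes of the count files, and 38 of them, those whose counts over the 6 libraries came to 10 or more, were tested. The exceptions were MEG8, found by its older SNHG symbols, with 1 count in GFP replicate 1 and 1 count in RBFOX1 replicate 1, and SNHG27, with no count in any library. SNHG33 was found through its RefSeq symbol, since the identifier ENSG00000240024 is called LINC00888 in GENCODE. Of the 40 genes, 34 were classed as snoRNA hosts, 3 as nuclear body lncRNAs (MALAT1, NEAT1, MIAT) and 3 as other abundant lncRNAs (TUG1, NORAD, OIP5-AS1).

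A172, an established human glioblastoma cell line, carried either the lentiviral construct pLX317-RBFOX1 or, as control, pLX317-GFP, which expresses a fluorescent protein. RBFOX1 is an RNA-binding protein of neurons and muscle that recognises the hexamer UGCAUG. The lines were stable transductants, both groups thus carried an integrated vector, and each group had 3 replicate libraries of rRNA-depleted total RNA, sequenced as stranded paired-end reads. In the count files, reads assigned to genes summed to between 7433414 (RBFOX1 replicate 1) and 23249221 (GFP replicate 1) per library, so that 3 counts were worth between 1.82 and 5.44 normalized counts.

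SnoRNA host genes are transcribed and spliced like mRNAs, but their introns carry small nucleolar RNAs (snoRNAs), which guide the methylation and pseudouridylation of ribosomal and spliceosomal RNA. The spliced host RNA is often short-lived, because many hosts are translated over short open reading frames and then degraded by nonsense-mediated decay, and several begin with the C and pyrimidine tract that is typical of genes for ribosomal proteins. MALAT1 and NEAT1 remain in the nucleus, in nuclear speckles and as the scaffold of paraspeckles, whereas NORAD is mostly cytoplasmic and binds the Pumilio proteins.

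Features of their sequence are shown first, because the results refer back to them. The first is the transcript start. A C followed by at least 4 C or T bases at the RefSeq start was present in 7 of the 34 lncRNAs that have an entry in the RefSeq start table (20.6%), all of them snoRNA hosts, against 1417 of all 34943 RefSeq starts (4.06%). Other starts of the same genes were not examined. Each line gives 40 bases before and 40 bases after the start on the strand of the gene (RefSeq, GRCh38.p14), with the pyrimidine tract in capitals.
SNHG32, chr6:31834876-31834955, plus strand: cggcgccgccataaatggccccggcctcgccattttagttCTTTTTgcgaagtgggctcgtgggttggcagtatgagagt
ZFAS1, chr20:49278602-49278681, plus strand: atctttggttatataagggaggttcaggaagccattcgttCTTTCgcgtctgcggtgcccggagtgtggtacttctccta
SNHG5, chr6:85678694-85678773, minus strand: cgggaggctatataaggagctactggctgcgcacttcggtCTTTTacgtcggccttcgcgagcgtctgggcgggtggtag
SNHG12, chr1:28581834-28581913, minus strand: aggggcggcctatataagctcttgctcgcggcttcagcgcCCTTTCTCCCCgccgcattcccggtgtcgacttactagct
SNHG19, chr16:2155319-2155398, minus strand: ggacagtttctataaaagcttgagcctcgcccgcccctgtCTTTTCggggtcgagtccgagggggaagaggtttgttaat
SNHG4, chr5:139274061-139274140, plus strand: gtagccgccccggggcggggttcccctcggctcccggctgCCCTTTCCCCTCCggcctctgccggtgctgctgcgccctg
SNHG18, chr5:9546160-9546239, plus strand: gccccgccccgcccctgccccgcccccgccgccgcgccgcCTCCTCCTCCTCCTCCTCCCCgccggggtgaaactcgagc
Of these 7 genes, SNHG32 and ZFAS1 were lower in RBFOX1 cells, SNHG18 was higher, and SNHG5, SNHG12, SNHG19 and SNHG4 did not pass the test.

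The second feature is the RBFOX hexamer, written TGCATG in DNA letters and searched on the transcribed strand of GENCODE 44 exons. At least 1 copy was found in 24 of the 38 tested lncRNAs (63.2%), beside 59.1% of the tested genes with an annotation and 42.2% of the tested lncRNA genes. Pooled over exons, the density was 0.358 copies per kb in the tested lncRNAs, 0.280 over all genes tested and 0.297 over lncRNA genes. SNHG14, the longest of the lncRNAs and not called, held 60 of the 127 copies, and without it the density was 0.289 copies per kb, between the values of all genes and of lncRNA genes. A copy was present in 7 of the 13 lncRNAs that were higher in RBFOX1 cells, in 5 of the 8 that were lower and in 12 of the 17 that did not pass the test. SNHG1, SNHG18, SNHG32, SNHG33 and NORAD, which are among the genes with the largest changes, held none in their exons. For SNHG33 only the 421 exonic bases of its GENCODE 44 model were searched, and the model used for counting may have had other exons. The sites of the 4 changed hosts below, each the only one in its exons, are shown in 40-base windows (GRCh38), with the hexamer in capitals.
SNHG15, chr7:44986282-44986321, minus strand: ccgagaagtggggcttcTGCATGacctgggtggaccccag
SNHG16, chr17:76560012-76560051, plus strand: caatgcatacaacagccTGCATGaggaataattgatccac
SNHG29, chr17:16460893-16460932, plus strand: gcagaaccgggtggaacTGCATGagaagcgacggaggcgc
GAS5, chr1:173867789-173867828, minus strand: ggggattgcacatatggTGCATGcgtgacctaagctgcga
The match is one of letters, and binding was not measured here. SNHG15 and SNHG16 were higher in RBFOX1 cells, and SNHG29 and GAS5 were lower.

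RBFOX1 itself was at 4, 0 and 1 counts in GFP replicates 1 to 3, against 10276, 16467 and 21451 in RBFOX1 replicates 1 to 3, so the libraries matched their labels. Of the markers looked up to check the cell line, the mesenchymal gene VIM and the neural stem cell gene NES were abundant in both groups, while the astrocyte markers GFAP, at most 4 counts in any library, and S100B, at most 2, were nearly absent.

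In the comparison of RBFOX1 with GFP cells, the lncRNAs moved in both directions. SNHG15, SNHG1, SNHG18, SNHG17 and SNHG3 rose, SNHG33, SNHG32, SNHG29, DANCR and NORAD fell, and MALAT1, NEAT1, OIP5-AS1 and SNHG5 did not pass the test. By edgeR's quasi-likelihood test (adjusted p under 0.05 over all 20536 genes tested), 13 of 38 lncRNAs were higher and 8 were lower, which is 55.3% against a background of 46.7% over all genes. The direction split was 34.2% higher and 21.1% lower, against 23.7% higher and 22.9% lower over all genes tested, and lncRNA genes as a whole were called in 22.0% of cases. Since these hosts are more abundant than most lncRNAs, the nearer comparison is with genes of at least 50 normalized counts on average. Among those, 20 of 34 of the lncRNAs were called (58.8%), beside 63.8% of the genes at that level. The 12 higher and 8 lower lncRNAs made up 35.3% and 23.5%, beside 30.4% and 33.4% of those genes. The median log2 fold change was 0.13 over the 38 lncRNAs and 0.0051 over all genes. In 25 of the 38 the values of the 2 groups did not overlap, beside 53.4% of all genes. Among the lncRNAs with at least 50 normalized counts on average it was 24 of 34. The share of all genes without overlap at that level is not given here. Of the called lncRNAs, 6 also differed by more than 1.5-fold, a cut at which the share of all genes is not given here.

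**Figure D1:**
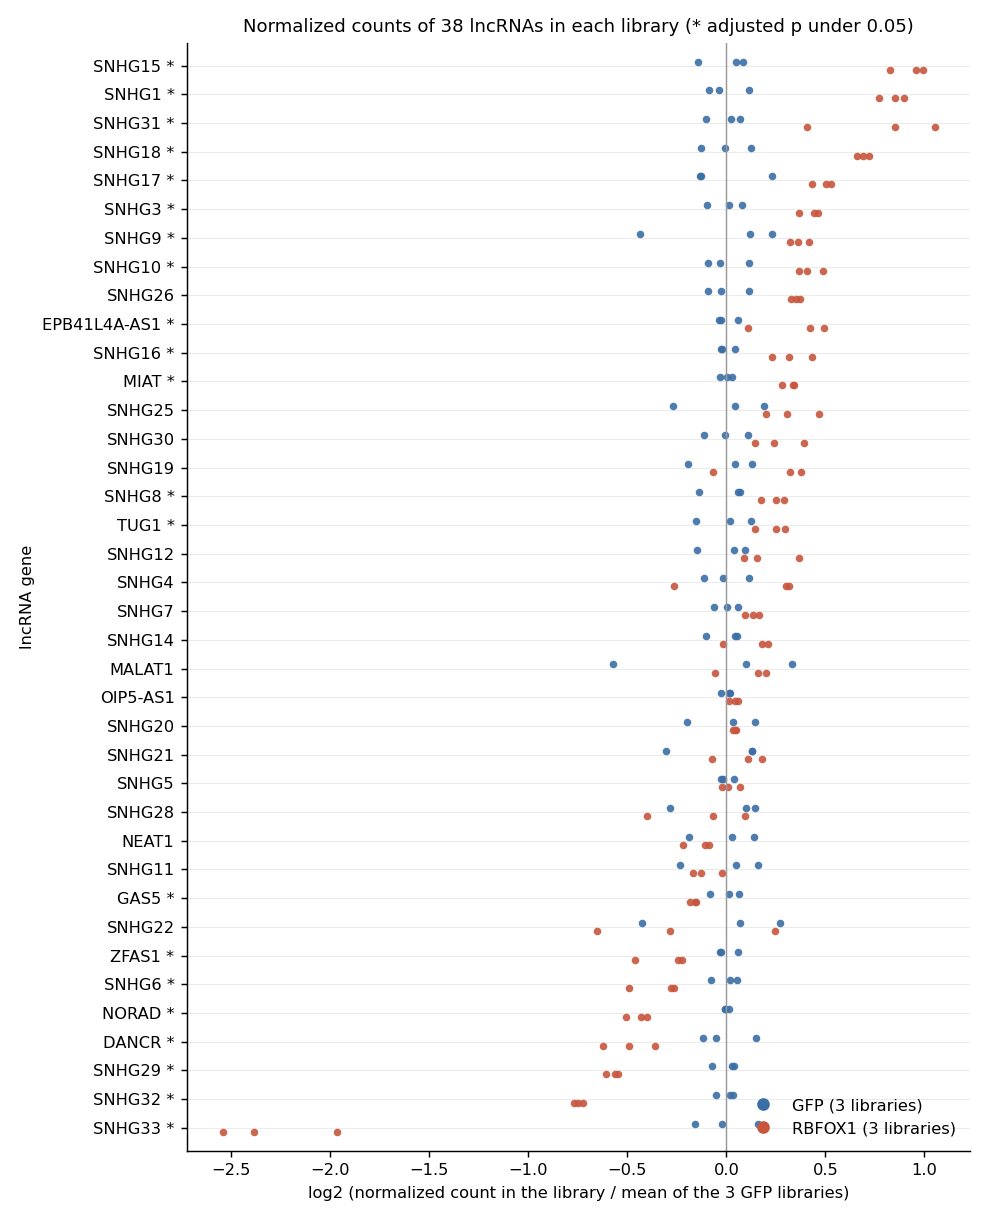
Normalized counts of the 38 tested lncRNAs in each library, on the x axis as log2 of the ratio to the mean of the 3 GFP libraries, with 1 gene per row ordered by fitted fold change and an asterisk where the adjusted p is under 0.05. The RBFOX1 points of SNHG15, SNHG1 and SNHG18 lie to the right of all GFP points, those of SNHG33, SNHG32, SNHG29 and NORAD lie to the left, and GFP replicate 1 of MALAT1 stands apart at the left of its row.

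Among the hosts that rose, SNHG15 (ENSG00000232956, chr7:44983019-44986961), which carries SNORA9, had 224, 230 and 196 normalized counts in GFP replicates 1 to 3 and 385, 431 and 421 in RBFOX1 replicates 1 to 3. Every RBFOX1 library was above every GFP library, and the log2 fold change was 0.93 (standard error 0.0854, edgeR adjusted p = 1.71e-08). SNHG1 (ENSG00000255717, chr11:62851978-62855953), the host of a cluster of box C/D snoRNAs, had 697, 605 and 627 in GFP and 1195, 1097 and 1161 in RBFOX1 libraries. The groups were again separate, and the log2 fold change was 0.83 (standard error 0.0650, edgeR adjusted p = 1.70e-09).

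SNHG18 (ENSG00000250786, chr5:9546170-9550725) had 257, 235 and 216 normalized counts in GFP and 381, 373 and 389 in RBFOX1 libraries, a log2 fold change of 0.68 (edgeR adjusted p = 1.11e-06). SNHG17 (ENSG00000196756, chr20:38419638-38435409), which carries the SNORA71 family, had 140, 179 and 139 against 216, 205 and 220, a log2 fold change of 0.51 (edgeR adjusted p = 0.000604). The locus of SNHG3 (ENSG00000242125, chr1:28505980-28510892) holds SNORA73A and SNORA73B. It shares 11.0% of its exonic bases with RCC1 and SNORA73A on the same strand. SNHG3 had 479, 425 and 458 against 586, 626 and 618, a log2 fold change of 0.42 (edgeR adjusted p = 3.86e-05). In all of these the highest GFP library stayed below the lowest RBFOX1 library, and GFP replicate 2 was the highest of its group for SNHG17.

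SNHG16 (ENSG00000163597, chr17:76557727-76670985), the most abundant of the hosts that rose, had 2717, 2585 and 2590 normalized counts in GFP and 3084, 3281 and 3547 in RBFOX1 libraries, a log2 fold change of 0.33 (standard error 0.0538, edgeR adjusted p = 3.48e-05). SNHG8 rose less, from 620, 537 and 614 to 667, 702 and 723, a log2 fold change of 0.24 (edgeR adjusted p = 0.00779), and the call was lost without GFP replicate 2, where it was 0.17. EPB41L4A-AS1, an antisense neighbour of EPB41L4A that carries SNORA13, had 168, 180 and 170 in GFP and 243, 231 and 186 in RBFOX1 libraries, a log2 fold change of 0.33 (edgeR adjusted p = 0.0139). The groups were separate for each of the 3 genes, but for EPB41L4A-AS1 RBFOX1 replicate 3 lay just above the GFP libraries, and its call was lost with DESeq2 and without RBFOX1 replicate 1 or 2.

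The weakest calls among the hosts that rose were SNHG9 and SNHG10. SNHG9 had 72.2, 106 and 115 normalized counts in GFP and 131, 125 and 122 in RBFOX1 libraries, a log2 fold change of 0.41 (standard error 0.152, edgeR adjusted p = 0.0320). GFP replicate 1 was the low value, and without it the log2 fold change was 0.18 and not called. In all, the call was lost in 6 of the 14 alternative fits. SNHG10, the host of SCARNA13, had 60.7, 52.6 and 54.8 against 74.4, 72.2 and 78.5, a log2 fold change of 0.41 (edgeR adjusted p = 0.0278), and its call was lost in 5 of the 14 alternative fits. SNHG31, below 50 normalized counts in the mean, ranged from 22.5 to 25.3 in GFP and from 32 to 50 in RBFOX1 libraries (log2 fold change 0.78, edgeR adjusted p = 0.00659), and its call was lost with DESeq2 and without RBFOX1 replicate 2.

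Of the hosts that fell, SNHG33 had by far the largest change. The identifier ENSG00000240024 was at 352, 147 and 179 counts in GFP replicates 1 to 3, against 27, 33 and 36 in RBFOX1 replicates 1 to 3. After normalization these were 214, 171.7 and 189 against 49.0, 36.6 and 32.9, 5.10-fold lower, for which the fitted log2 fold change was -2.35 (standard error 0.152, edgeR adjusted p = 8.69e-11). In GENCODE 44 this identifier is a pseudogene model of 421 exonic bases (chr3:183451741-183455335), and the model in the older annotation used for counting may have had other exons, so the value belongs to the identifier and not to a known isoform of SNHG33.

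SNHG32 (ENSG00000204387, chr6:31834608-31839766), whose introns carry SNORD48 and SNORD52, had 1668, 1652 and 1574 normalized counts in GFP and 958, 970 and 987 in RBFOX1 libraries. It was 1.68-fold lower, a log2 fold change of -0.75 (standard error 0.0535, edgeR adjusted p = 4.40e-10). SNHG29 (ENSG00000175061, chr17:16438767-16480249), the host of SNORD49A, SNORD49B and SNORD65, had 6444, 6404 and 5973 against 4248, 4112 and 4291, a log2 fold change of -0.57 (standard error 0.0483, edgeR adjusted p = 4.99e-09). In both genes the GFP libraries lay close together and far above the RBFOX1 libraries.

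DANCR (ENSG00000226950, chr4:52712325-52723623), which carries SNORA26 and is known for holding back differentiation of progenitor cells, had 429, 373 and 356 normalized counts in GFP and 250, 274 and 300 in RBFOX1 libraries, a log2 fold change of -0.48 (edgeR adjusted p = 0.000175). SNHG6, the host of SNORD87, had 374, 384 and 351 against 263, 308 and 305, a log2 fold change of -0.33 (edgeR adjusted p = 0.00264). ZFAS1, the host of SNORD12 and its relatives, had 899, 845 and 844 against 626, 729 and 740, a log2 fold change of -0.30 (edgeR adjusted p = 0.00113). The groups did not overlap in any of the 3, and RBFOX1 replicate 1 was the lowest library in each.

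GAS5 (ENSG00000234741, chr1:173858559-173868882), named for its accumulation in growth-arrested cells, fell by the smallest amount. It had 3195, 3091 and 2893 normalized counts in GFP and 2692, 2748 and 2738 in RBFOX1 libraries, a log2 fold change of -0.17 (standard error 0.0498, edgeR adjusted p = 0.00900). The snoRNAs in the introns of GAS5 were not analysed here.

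The hosts that did not pass the test covered a wide range of levels. SNHG5 had 1452, 1509 and 1439 normalized counts in GFP and 1444, 1538 and 1474 in RBFOX1 libraries, and its log2 fold change of 0.02 had a 95% interval from -0.08 to 0.12. SNHG7 had 601, 552 and 577 against 646, 616 and 633 (log2 fold change 0.12, edgeR adjusted p = 0.131), so the groups were separate although the test was not passed. The log2 fold changes of SNHG26 and SNHG30 were 0.36 and 0.26, and each was called in 3 of the 14 alternative fits. The other 10 hosts, SNHG25, SNHG19, SNHG12, SNHG4, SNHG14, SNHG20, SNHG21, SNHG28, SNHG11 and SNHG22, had log2 fold changes between -0.19 and 0.32, and SNHG28 and SNHG21 shared 90.8% and 72.9% of their exonic bases with other genes.

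The nuclear body lncRNAs were led by MALAT1 (ENSG00000251562, chr11:65497640-65508073), with 41166, 76969 and 65662 normalized counts in GFP and 70328, 68383 and 58824 in RBFOX1 libraries. GFP replicate 1 was the low value, the other libraries overlapped, and the log2 fold change of 0.10 (standard error 0.134, edgeR adjusted p = 0.568) had a 95% interval from -0.16 to 0.37. The sign depended on the GFP libraries, with -0.11 without GFP replicate 1 and 0.30, called, without GFP replicate 2. NEAT1 had 3174, 3995 and 3693 against 3359, 3412 and 3112, a log2 fold change of -0.13 (edgeR adjusted p = 0.109), which passed the test in 2 of the 14 alternative fits, without GFP replicate 1 at -0.22 and without the low-count filter at -0.14.

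MIAT, a nuclear lncRNA of neural tissue, was the only one of the 3 nuclear body lncRNAs that was called. It had 629, 614 and 642 normalized counts in GFP and 796, 764 and 794 in RBFOX1 libraries, a log2 fold change of 0.32 (standard error 0.0609, edgeR adjusted p = 0.000196), with narrow groups that did not overlap.

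As a share of all counts on genes, MALAT1 took 0.292%, 0.543% and 0.465% of the GFP and 0.522%, 0.495% and 0.432% of the RBFOX1 libraries. All 40 lncRNAs together took 0.715% ± 0.130 (SD, n = 3) in GFP and 0.744% ± 0.0442 (SD, n = 3) in RBFOX1 cells, a difference that did not exceed the spread (exact permutation test, two-sided, p = 0.8, where 0.1 is the smallest p that 3 against 3 libraries allow). Without MALAT1 and NEAT1 the share was 0.256% ± 0.00428 (SD, n = 3) in GFP and 0.237% ± 0.00304 (SD, n = 3) in RBFOX1 cells (exact permutation test, p = 0.1), and each RBFOX1 library was below each GFP library. That difference, -0.0193 percentage points, is a net of rises and falls. NORAD alone had -0.0187, with a share of 0.0784% in GFP and 0.0597% in RBFOX1 cells. The shares of the snoRNA hosts together, 0.150% and 0.145%, overlapped between the groups, with single hosts moving in both directions.

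**Figure D2:**
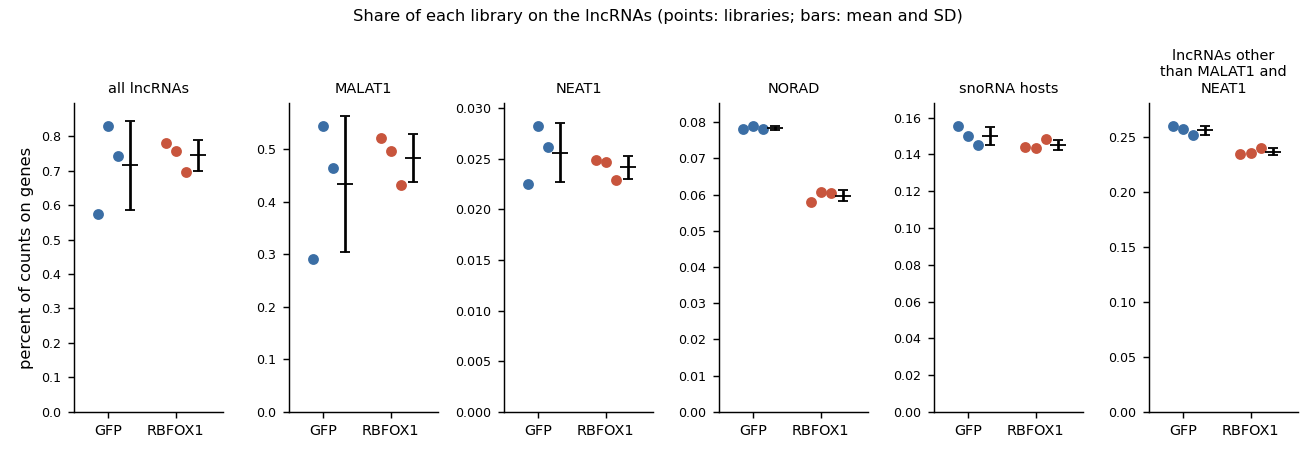
Share of each library on the lncRNAs, in percent of the counts on genes (y axis, starting at 0, with its own scale in each panel), for the GFP and RBFOX1 libraries. Points are libraries and the black bars give the mean and SD, and NORAD and the lncRNAs other than MALAT1 and NEAT1 are the panels without overlap, whereas GFP replicate 1 is the low point for MALAT1.

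Among the other abundant lncRNAs, NORAD (ENSG00000260032, chr20:36045618-36051018) had 11021, 11170 and 11043 normalized counts in GFP and 7807, 8380 and 8227 in RBFOX1 libraries. It was 1.36-fold lower, a log2 fold change of -0.44 (standard error 0.0467, edgeR adjusted p = 1.22e-07), and the GFP libraries lay within a narrow range far above the RBFOX1 libraries. TUG1 had 1210, 1468 and 1363 against 1656, 1601 and 1487, a log2 fold change of 0.23 (edgeR adjusted p = 0.00625), with GFP replicate 1 the lowest. OIP5-AS1, the human counterpart of the zebrafish lncRNA cyrano, had 1889, 1950 and 1944 against 1948, 2011 and 1990, a log2 fold change of 0.04 with a 95% interval from -0.05 to 0.14.

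NORAD binds Pumilio proteins through repeats of the Pumilio element, written TGTANATA in DNA letters. This element was searched for after the values of NORAD were seen, on the transcribed strand. The single exon of NORAD held 15 copies in 5401 bases, 2.78 per kb, beside 0.120 per kb over the exons of all genes tested, of which 32.8% held at least 1, and 7 tested genes held more copies than NORAD. The following 40-base windows (GRCh38, minus strand) show 4 of these copies, with the element in capitals.
NORAD, chr20:36049798-36049837: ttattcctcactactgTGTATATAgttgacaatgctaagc
NORAD, chr20:36049496-36049535: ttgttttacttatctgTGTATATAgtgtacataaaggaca
NORAD, chr20:36047966-36048005: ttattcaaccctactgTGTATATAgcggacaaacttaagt
NORAD, chr20:36047345-36047384: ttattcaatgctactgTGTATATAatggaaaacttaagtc
All 4 genes of the list of NORAD partners were higher, beside 30.4% of genes with at least 50 normalized counts, and GFP replicate 1 stood apart in this list, with a median log2 ratio to the GFP mean of -0.20 against 0.08 in both other GFP libraries. RBMX, a splicing factor, had 2297, 2218 and 2170 normalized counts in GFP and 3542, 3846 and 3812 in RBFOX1 libraries, a log2 fold change of 0.75 (edgeR adjusted p = 1.60e-10). PUM2 and KHDRBS1, in which GFP replicate 1 was the lowest library, had log2 fold changes of 0.37 and 0.42. Their adjusted p-values rose to 0.109 and 0.110 in the least favourable alternative fit, and with DESeq2 only 2 of the 4 genes were called. The part of GFP replicate 1 in these values was not tested.

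**Figure D3:**
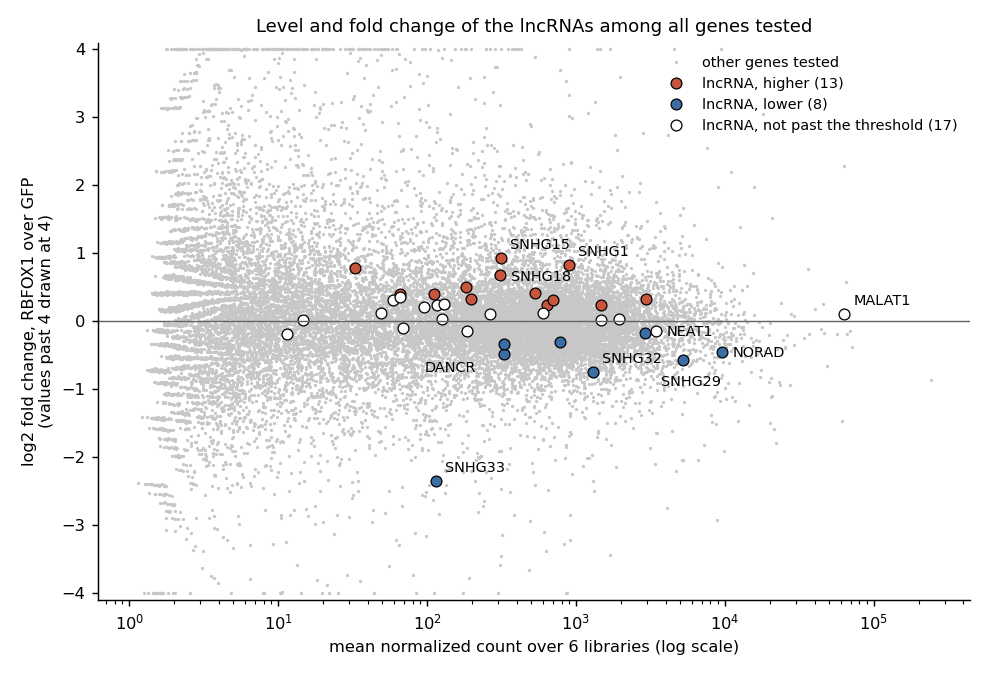
Mean normalized count over the 6 libraries (x axis, log scale) against the log2 fold change of RBFOX1 over GFP (y axis) for the 38 lncRNAs (large circles, coloured by call) and all other genes tested (grey dots). MALAT1 lies at the highest level of the lncRNAs close to 0, NORAD, SNHG29 and SNHG32 lie below 0 at high levels, and SNHG33 lies apart at the bottom.

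Levels between genes were compared per kb of exon (normalized counts divided by the GENCODE 44 exonic length, which joins the exons of all transcripts and so understates genes with many rare isoforms). In GFP cells the order was MALAT1 (5872 ± 1754, SD, n = 3), NORAD (2051 ± 14.9), SNHG32 (906 ± 28.1), SNHG29 (701 ± 29.2), GAS5 (620 ± 31.1), SNHG16 (455 ± 12.9) and SNHG33 (454 ± 50.2), of which SNHG16 and SNHG33 did not differ beyond their spread and the length of SNHG33 is that of the short GENCODE 44 model. In RBFOX1 cells MALAT1 and NORAD again led, and SNHG16 (572 ± 40.2) lay within 1 SD of GAS5 (553 ± 6.09) and of SNHG32 (540 ± 8.18), above SNHG29 (471 ± 10.4). Below these, SNHG19, SNHG1, NEAT1, SNHG9, SNHG25 and SNHG6 were between 146 and 176 in GFP cells, where neighbours in the order did not differ beyond their spread.

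Within the hosts, 195 snoRNA and scaRNA identifiers are annotated on the same strand, some of them at overlapping positions, such as those called SNORA16A in SNHG12. The libraries were not made for small RNAs, and only 29 of them had at least 10 summed counts, of which 3 were called higher and 5 lower, 27.6% beside 46.7% of all genes. The 5 with at least 50 normalized counts on average were lower, or not called, while their hosts were higher or not called. SNORA73B, in the SNHG3 locus, had 2657, 2562 and 2379 normalized counts in GFP and 1930, 1927 and 1848 in RBFOX1 libraries, a log2 fold change of -0.42 (edgeR adjusted p = 1.54e-06), where SNHG3 had 0.42. SCARNA13, which lies in an exon of SNHG10, had 717, 707 and 649 against 519, 552 and 530, a log2 fold change of -0.37 (edgeR adjusted p = 0.000103), where SNHG10 had 0.41. The groups of both small RNAs were separate, and both calls were kept in all 14 alternative fits.

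SNORA74A, in SNHG4, had a log2 fold change of -0.48 (edgeR adjusted p = 0.00879), where that of SNHG4 was 0.13 and not called. SNORA71A and SNORA71D, 2 of the near-identical copies in SNHG17, had -0.22 (edgeR adjusted p = 0.0408, called in 6 of the 14 alternative fits) and -0.31 (not called), where SNHG17 had 0.51. Reads cannot be assigned with certainty among such copies. The difference between host and small RNA was not tested, and a read that fits a host exon and a small RNA alike is counted on neither gene in the counting mode used, so that overlap can lower both values. In the SNHG3 locus, SNORA73A, which lies inside an annotated host exon, had 0 counts in every library. SNORA73B, which does not lie inside a host exon, had between 1064 and 4377 counts. The part of such overlap in the small RNAs without counts was not tested.

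Of the lncRNAs, 10 start within 5000 bases of the start of a protein-coding gene on the opposite strand. Of these neighbours 5 were higher and 0 lower by edgeR's adjusted p, and 0 were lower at an unadjusted p under 0.05, with DESeq2 or with limma-voom. All 10 neighbours had at least 50 normalized counts on average, and the 5 called (50%) were close to the 46.7% of all genes and below the 63.8% of genes at that level. SEMA5A, a semaphorin that guides axons, starts 95 bases from SNHG18 and had 111, 117 and 120 normalized counts in GFP and 867, 844 and 876 in RBFOX1 libraries, a log2 fold change of 2.90 (standard error 0.0776, edgeR adjusted p = 1.25e-16), beside 0.68 for SNHG18. BARD1, the partner of BRCA1, starts 498 bases from SNHG31 and had 267, 248 and 279 against 521, 487 and 468, a log2 fold change of 0.88 (edgeR adjusted p = 1.03e-08), beside 0.78 for SNHG31.

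SLC3A2, the heavy chain of several amino acid transporters, starts 51 bases from SNHG1 and had a log2 fold change of 0.16 (edgeR adjusted p = 0.00666), beside 0.83 for SNHG1. ZBTB37 beside GAS5 had 0.21 where GAS5 fell, and this call was kept in 9 of the 14 alternative fits. ACAA2, a thiolase of fatty acid oxidation beside SNHG22, had 0.29. RPS2 beside SNHG9, ZNFX1 beside ZFAS1, GLRX5 beside SNHG10 and TRAF7 beside SNHG19 were called neither here nor in any alternative fit. MORC2 beside TUG1 had 0.25 (edgeR adjusted p = 0.0505), just above the threshold of 0.05, and was called in 7 of the 14 alternative fits.

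**Figure D4:**
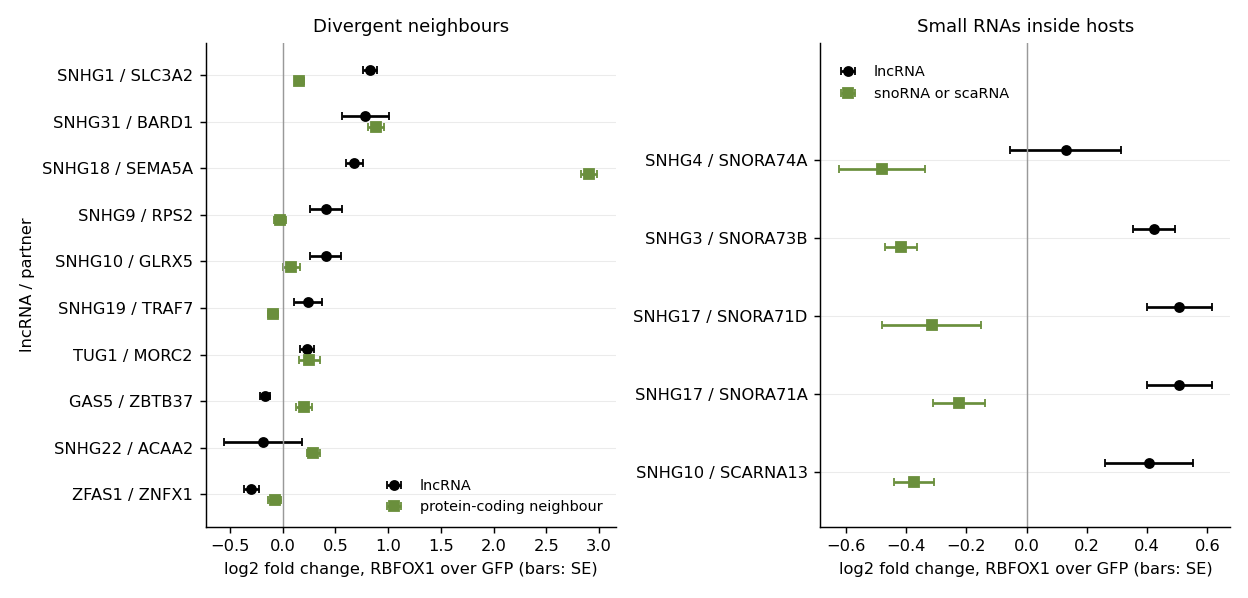
Log2 fold change of RBFOX1 over GFP (x axis, bars give the standard error) of lncRNAs (black circles) and of their partners (green squares), which are protein-coding neighbours on the opposite strand in the left panel and small RNAs of at least 50 normalized counts in the right panel. The neighbours are titled divergent, but whether each pair points away from each other was not checked. SEMA5A exceeds SNHG18, BARD1 lies near SNHG31, and all 5 small RNAs lie left of 0 while their hosts lie right of it.

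The proteins that act on these RNAs were examined as lists, with the share called over all genes as given above. Of the 17 snoRNP core and assembly proteins, 9 were higher and 1 was lower, with a median log2 fold change of 0.17. NOLC1, the nucleolar chaperone of snoRNPs, had 1448, 1665 and 1677 normalized counts in GFP and 4556, 4293 and 4449 in RBFOX1 libraries, a log2 fold change of 1.48 (edgeR adjusted p = 3.89e-14). NOP58, a core protein of box C/D particles, had 0.79 (edgeR adjusted p = 8.07e-10), and NOP10, a core protein of H/ACA particles, had -0.23 (edgeR adjusted p = 0.00227).

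Of the 25 protein-coding snoRNA host genes, 8 were higher and 9 were lower, with a median of 0.09. The largest rises were those of TNPO2, a nuclear import receptor (0.98), and GNL3, the nucleolar protein nucleostemin (0.63). Those that fell were led by RPS12, a ribosomal protein (-0.58), and TPT1, a translationally controlled protein (-0.52), and the others included RACK1, RPL10, HSPA8, RPL7A, HSPA9 and RPSA, of which RACK1, RPL10, RPL7A and RPSA also encode ribosomal proteins. These counts, 32% higher and 36% lower, were near the 30.4% and 33.4% of genes with at least 50 normalized counts on average.

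Of the 18 nonsense-mediated decay factors, 11 were higher and 1 was lower, with a median of 0.21. DCP2, the catalytic subunit of the decapping enzyme, had the largest rise (0.83, edgeR adjusted p = 7.32e-11), followed by UPF3B, which links the exon junction complex to UPF2 (0.67), and SMG8, a regulator of the kinase SMG1, fell (-0.21). Of the 16 genes of the nuclear RNA exosome and its adaptors, 6 were higher and 1 was lower, with a median of 0.15. RBM7, of the nuclear exosome targeting complex, had 1.28 (edgeR adjusted p = 9.06e-10), the core subunit EXOSC5 had 0.31 and the core subunit EXOSC1 had -0.27.

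Of the 16 paraspeckle proteins, 11 were higher and 1 was lower, with a median of 0.39, while NEAT1, their scaffold, was not called. PSPC1, a core protein of paraspeckles, had 374, 410 and 368 normalized counts in GFP and 729, 862 and 799 in RBFOX1 libraries, a log2 fold change of 1.06 (edgeR adjusted p = 2.92e-10). SMARCA4, a chromatin remodelling ATPase, had 0.79, and RBM12 had -0.50. Every tested gene of these lists had at least 50 normalized counts on average, a level at which 63.8% of all genes were called.

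**Figure D5:**
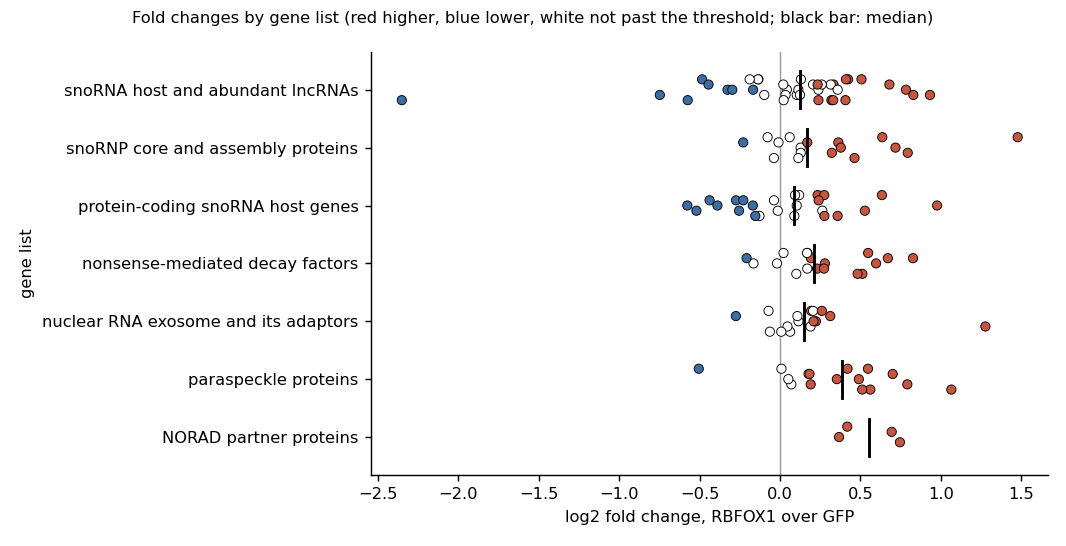
Log2 fold change of RBFOX1 over GFP (x axis) of each tested gene in the lncRNA set and in the 6 lists of proteins and coding hosts (rows), with 1 circle per gene coloured by call and a black bar at the median. The lncRNAs and the protein-coding hosts spread to both sides of 0, and the paraspeckle proteins and NORAD partners have the medians farthest to the right, at 0.39 and 0.56.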

How the data were processed

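Stable A172 lines with pLX317-GFP or pLX317-RBFOX1 were sequenced as rRNA-depleted stranded libraries, 3 per group. The authors aligned reads to GRCh38 with HISAT2, counted them with HTSeq-count (intersection-strict, reverse strand) on Ensembl 87 genes, and deposited raw counts per gene and library. The authors' deposited table of their DESeq2 comparison (means, fold changes, p-values) was not used. Rows that name no gene (38.15% to 48.0% of each file's total) were left out. Among them, ambiguous reads made up 8.89% to 9.35% of the GFP and 6.89% to 7.94% of the RBFOX1 files. Their part in the values of lncRNAs that overlap other genes was not tested.

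Here the counts were scaled by TMM to the mean library and fitted with edgeR 4.0.16 (R 4.3.3), quasi-likelihood test, two-sided, group only, all 6 libraries, Benjamini-Hochberg over the 20536 genes with at least 10 summed counts, threshold 0.05. The procedure was tested on simulated counts. Alternatives used DESeq2 1.42.0, limma 3.58.1 (voom), other scalings and filters, a replicate block and leaving out each library. Gene models came from GENCODE 44 (98.1% of identifiers matched), starts from RefSeq. The biological coefficient of variation was 0.0542. Replicates were described as biological. Intervals are 1.96 standard errors to each side. Named were all tested lncRNAs, in full where called with a mean of at least 50 normalized counts, and from each list up to 2 rises and 2 falls under the same conditions. Beyond this, further protein-coding hosts that fell were named, and PUM2, KHDRBS1 and HNRNPH3, in which GFP replicate 1 was low. Some list genes are counted but not reported here by name. Members and lists were chosen with earlier results of these data known.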

Additional observations from a re-analysis of the deposited data

How the results depend on the processing

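No call of a lncRNA reversed, and of the values of single lncRNAs under the alternatives 505 kept their side of the threshold, 17 lost it and 10 gained it. Requiring 1.5-fold as well left 4 lncRNAs higher and 2 lower, 4 and 0 of the snoRNP proteins, 2 and 0 of the protein-coding hosts, 3 and 0 of the decay factors, 1 and 0 of the exosome genes, 3 and 0 of the paraspeckle proteins and 2 NORAD partners higher. The share of all genes past 1.5-fold is not given here, so these counts have no background beside them. With DESeq2, 2 NORAD partners were higher. Decay factors called lower numbered 2 with upper quartile scaling and without the low-count filter. Leaving out 1 library at a time gave 0 to 2 decay factors lower, 1 to 2 exosome genes lower and a median log2 fold change of the lncRNAs from 0.111 to 0.172, and the median was 0.165 at a mean of at least 50. Without GFP replicate 1, 2 decay factors and 2 exosome genes were lower. The cause was not tested. No pairing by replicate number was seen. Same-numbered libraries had correlations of their deviations of -0.170, 0.034 and -0.055, and different-numbered libraries had values from -0.153 to 0.176. Deviations from a mean of 3 libraries depend on one another, so these values cannot decide whether the samples were paired in the experiment. With a replicate block 12 lncRNAs were higher and 8 lower, the median was 0.142, and SNHG9 lost its call. Other scalings moved the median of all genes by at most 0.024. Genes near 3 counts cannot be measured precisely, which limits the small RNAs most.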

Other observations

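GFP replicate 1 lay far below the other GFP libraries for MALAT1, and the same library was low for several genes of the lists of RNA-binding proteins, chosen after their values were seen. HNRNPH3, a paraspeckle protein, had 609, 1135 and 1056 normalized counts in GFP replicates 1 to 3 and 1386, 1378 and 1257 in RBFOX1 replicates 1 to 3. PUM2 had 1137, 1661 and 1631 against 1783, 2042 and 1825, and KHDRBS1 had 771, 1223 and 1168 against 1420, 1408 and 1345. These 3 genes were called higher, and their adjusted p-values reached 0.122, 0.109 and 0.110 in the least favourable alternative fit. Whether a property of that library sets these values was not tested.

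Of the 7 markers looked up for the cell line, 6 were tested, of which 2 were higher and 3 were lower. That is 83.3% called, beside 46.7% of all genes. SOX2, a transcription factor of neural progenitors and one of these markers, rose from 18.2, 26.9 and 25.3 to 138, 137 and 121 normalized counts, a log2 fold change of 2.53 (edgeR adjusted p = 1.48e-10), whereas OLIG2, a factor of the oligodendrocyte lineage, had -0.50 and the surface receptor CD44 had -0.90. The fold changes of VIM and NES are not given here. Among the small RNAs below 50 normalized counts on average, SNORD116-19, in SNHG14, had 12.1, 7.01 and 9.48 against 29.0, 18.9 and 20.1, a log2 fold change of 1.10 (edgeR adjusted p = 0.00630), and its call was kept in all 14 alternative fits. It was chosen after its values were seen, it is one of many near-identical copies, and SNHG14 itself was not called.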
